A study of Mus musculus with 2 samples.

Results

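Pericytes are the contractile and supporting cells that wrap capillaries, and here they are 124 nuclei of the lactating mouse mammary fat pad. They were chosen from measured transcripts. A nucleus had to carry at least 1 unique molecular identifier (UMI, 1 counted RNA molecule) of at least 3 of the 8 genes Abcc9, Trpc6, Rgs5, Lin7a, Aspn, Fhl5, Pdgfrb and Notch3. It also had to carry at most 1 UMI summed over Pdgfra, Pecam1, Ptprc, Trp63 and Adipoq, which mark fibroblasts, endothelium, leukocytes, myoepithelium and adipocytes. The 124 were drawn from the 20854 nuclei that passed a floor of 500 UMIs and 300 genes and a ceiling of 5% mitochondrial UMIs, and the other 20730 are the comparison. Because the rule used expression, the levels in pericyte nuclei against other nuclei are a description, with no test.

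The nuclei came from the inguinal fat pads of 8 lactating dams on day 11 after birth, pooled in 1 gene expression library and 1 library of hashtags. A hashtag is a DNA barcode added to the nuclei of 1 dam before pooling. The labels give 4 dams with an adipocyte-specific Oxtr knockout (Oxtr encodes the oxytocin receptor) and 4 dams with a floxed Oxtr allele. Which promoter drove the deletion was not stated in the labels. The hashtags are named Oxtr-KO 1 to 4 and WT 1 to 4, and WT is taken here as the floxed group, the only other genotype that the labels name. All dams ate standard chow, were bred at 8 weeks of age, and had their lymph nodes cut away from the pad. Litters held 5 pups in 7 cases and 3 pups in 1, and no litter is tied to a dam. No label says that equal numbers mark a shared litter or day.

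Pericytes share the basement membrane of the capillary with the endothelium. Endothelial PDGF-B recruits them through the receptor PDGFRB, and Notch3 takes part in their maturation. Arteriolar smooth muscle carries related channels, receptors and contractile proteins, so both are called mural cells. An ATP-sensitive potassium channel with the regulatory subunit encoded by Abcc9 and the pore encoded by Kcnj8 is a known trait of pericytes, and it sets their membrane potential. TRPC6, also encoded by a rule gene, is a cation channel that opens downstream of G protein coupled receptors.

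The promoters of the Abcc9 and Kcnj8 genes, neighbours on chromosome 6, and of Trpc6 are shown because the channels they encode lead the account of pericyte transcripts below. Each is the 250 bases before the RefSeq start on the gene's strand, in the build GRCm38.p6, whereas the counts were made on GRCm39. The windows are chr6:142702275-142702524 (minus strand) for Abcc9, chr6:142571615-142571864 (minus strand) for Kcnj8 and chr9:8543892-8544141 (plus strand) for Trpc6. Capitals mark matches, on either strand, to the RBPJ core TGGGAA (the DNA-binding partner of Notch), the TEAD core GGAATG, the EBF half-sites TCCC and GGGA with 2 bases between them, and the CArG box, the site of serum response factor.
Abcc9: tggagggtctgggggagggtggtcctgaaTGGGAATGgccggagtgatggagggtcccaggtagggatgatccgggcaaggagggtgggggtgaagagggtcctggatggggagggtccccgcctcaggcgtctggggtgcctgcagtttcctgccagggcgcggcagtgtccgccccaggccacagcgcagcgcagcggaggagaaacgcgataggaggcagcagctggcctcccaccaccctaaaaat
Kcnj8: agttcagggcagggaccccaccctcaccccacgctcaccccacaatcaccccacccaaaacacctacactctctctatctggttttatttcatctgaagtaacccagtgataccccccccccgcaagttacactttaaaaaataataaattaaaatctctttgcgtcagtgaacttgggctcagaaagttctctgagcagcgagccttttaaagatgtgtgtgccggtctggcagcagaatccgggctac
Trpc6: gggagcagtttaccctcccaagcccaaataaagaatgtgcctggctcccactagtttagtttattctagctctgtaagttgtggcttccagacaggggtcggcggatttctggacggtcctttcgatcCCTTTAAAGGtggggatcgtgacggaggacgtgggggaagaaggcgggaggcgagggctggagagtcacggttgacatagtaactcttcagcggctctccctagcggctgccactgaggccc
The capitals in Abcc9 are 1 RBPJ core and 1 TEAD core that overlap, and those in Trpc6 are 1 CArG box. Kcnj8 held no match to these letters in its window. Of all 32851 windows of this length, 21.6% held the RBPJ core, 12.6% the TEAD core, 0.779% the EBF half-sites and 1.47% the CArG box. Of 7 rule genes in the table, 2 (Abcc9 and Fhl5) held an RBPJ core in at least 1 window, against 24.1% of all 27025 genes.

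Apart from Notch3, each rule gene was found in under 1% of secretory luminal nuclei, the milk-making cells, which serve as the background since they should lack these genes. Levels are UMIs summed over nuclei and scaled to a total of 1000000 (CPM), with exact 95% Poisson intervals that cover counting error only. Abcc9 stood at 571 CPM in pericyte nuclei (interval 512 to 635) and 2.64 CPM in other nuclei, with a UMI in 63.7% of pericyte nuclei and 0.295% of secretory luminal nuclei. Trpc6 stood at 375 CPM in pericyte nuclei (328 to 428) and 1.10 CPM in other nuclei, with a UMI in 54.8% of pericyte nuclei and 0.128% of secretory luminal nuclei. Rgs5, a brake on G protein signalling, stood at 308 CPM in pericyte nuclei (265 to 356) and 2.14 CPM in other nuclei. Median depth was 2494 UMIs in pericyte nuclei, 4366 in other nuclei and 4964 in secretory luminal nuclei, so the deeper cells had the lower share.

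Of the other 5 rule genes, several were also found in fibroblasts. Lin7a, which encodes a scaffold protein, stood at 459 CPM in pericyte nuclei (406 to 516), 31.3 CPM in fibroblast nuclei and 5.93 CPM in all other nuclei. Aspn, encoding the matrix proteoglycan asporin, stood at 233 CPM in pericyte nuclei (196 to 275), 32.0 CPM in fibroblast nuclei and 3.36 CPM in all other nuclei. Fhl5, encoding a LIM domain protein, stood at 177 CPM in pericyte nuclei (145 to 215) and 1.70 CPM in other nuclei. Pdgfrb stood at 325 CPM in pericyte nuclei (281 to 374), 159 CPM in fibroblast nuclei and 3.65 CPM in vascular endothelial nuclei. Vascular endothelial nuclei were chosen with at most 1 UMI over genes that include Pdgfrb, so their low level follows from that choice. Notch3 stood at 489 CPM in pericyte nuclei (434 to 548) and 42.3 CPM in other nuclei, and 20.5% of secretory luminal nuclei held a Notch3 UMI. After thinning nuclei to 1000 UMIs, which left out 7 pericyte nuclei and 188 secretory luminal nuclei as too shallow, Abcc9 was detected in 44.4% of 117 pericyte nuclei and 0% of 2000 sampled secretory luminal nuclei. Notch3 was then detected in 49.6% of pericyte nuclei and 4.40% of secretory luminal nuclei.

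**Figure D1:**
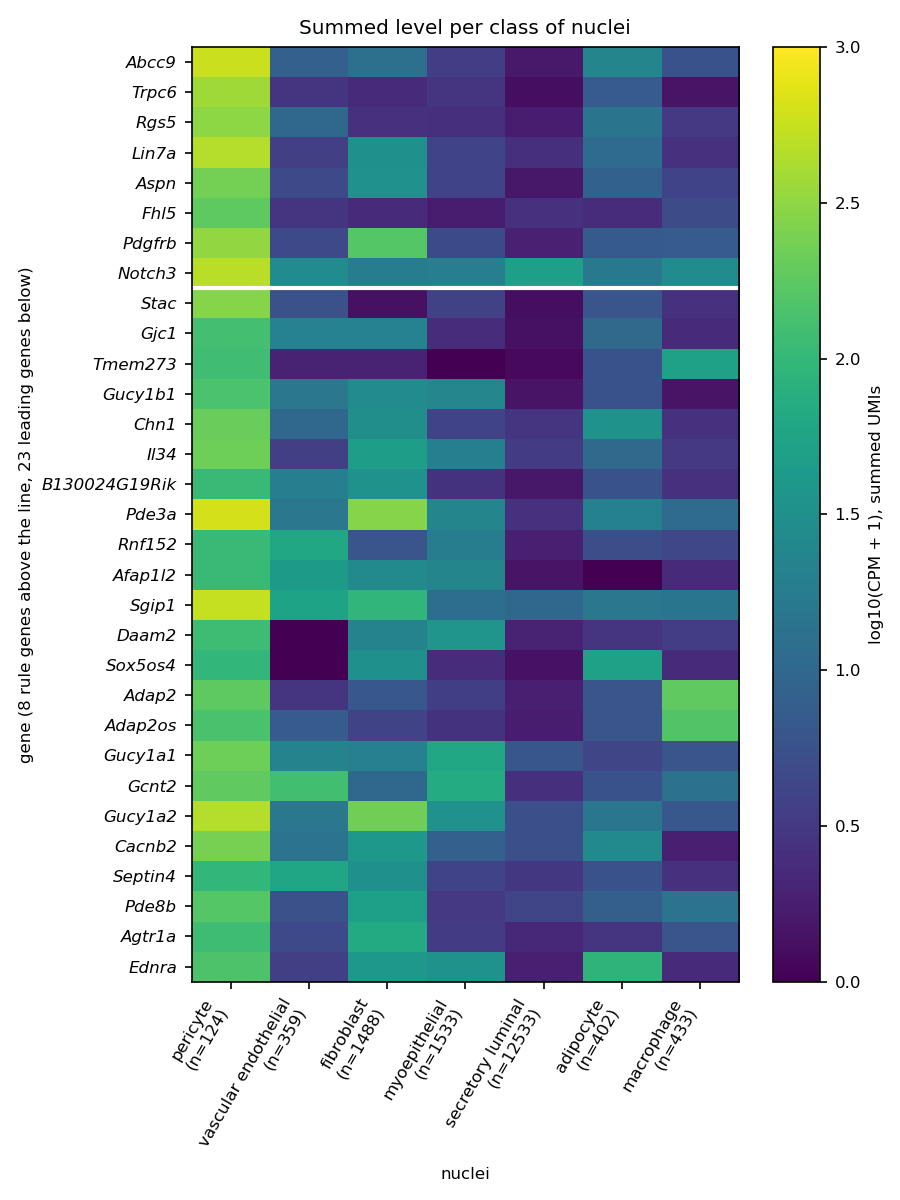
Colour gives log10(CPM + 1) of summed UMIs for the 8 rule genes and 23 leading genes outside the rule (rows) in pericyte nuclei and in 6 other classes named from marker genes (columns). The pericyte column is brightest in most rows, with exceptions such as Adap2 and Adap2os, which the macrophage column shares.

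The number of rule genes met shows how firmly each nucleus was chosen. Of the 124, 32 met 3 rule genes, 24 met 4, 23 met 5, 22 met 6, 16 met 7 and 7 met all 8. Among the members, 106 had 0 UMIs of the excluded genes and 18 had 1. Just outside the threshold lay 219 nuclei with 2 rule genes and at most 1 excluded UMI, and 36 nuclei with at least 3 rule genes and 2 or more excluded UMIs. The 26 pericyte markers outside the rule summed to 770 CPM in the 32 members with 3 rule genes, 2572 CPM in the 92 members with more, 558 CPM in the nuclei with 2 rule genes and 400 CPM in all other nuclei. In these sums, the members with exactly 3 rule genes lay closer to the nuclei just outside than to the members with more. The same 26 markers summed to 1588 CPM in adipocyte, 1267 CPM in myoepithelial and 944 CPM in fibroblast nuclei. They summed to 303 CPM in vascular endothelial, 245 CPM in macrophage and 235 CPM in secretory luminal nuclei. A sum of this size is thus not particular to pericyte nuclei. The sums weigh deep nuclei most. In the group with 3 rule genes, nuclei with 33036 and 32899 of its 245441 UMIs each carried more than 1 hashtag. These held 8.78 and 1.52 marker UMIs per 10000. Members of this group without a hashtag ranged from 0 to 59.3 per 10000, so the sum does not describe each nucleus.

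Marker lists of other cell types tell what else the members hold. Of the 13 fibroblast markers, at least 3 were found in 39 of 124 members, among them 15 of the 32 with 3 rule genes and 24 of the 92 with more. Those 39 had a median of 3863 UMIs, against 2019 UMIs in the other 85. Fibroblast markers summed to 948 CPM in members, against 8678 CPM in fibroblast nuclei. Each comparison class here was chosen by its own markers, so its sum over them is high by that choice. At least 3 vascular endothelial markers were found in 8 members, and the list summed to 256 CPM in members and 5777 CPM in vascular endothelial nuclei, with Egfl7 at 0 in members. Adipocyte markers summed to 693 CPM in members and 8548 CPM in adipocyte nuclei, with Lep at 0. Macrophage markers reached 3 in 2 members, and T or NK cell, lymphatic and mesothelial markers reached 3 in 0 members. Neuronal or Schwann cell markers reached 3 in 15 members, none of which lacked a hashtag. Of the 13 vascular smooth muscle markers, at least 3 were found in 30 members.

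Whether a member carried a hashtag went with large differences in its RNA. No hashtag was called in 78 of 124 pericyte nuclei (62.9%, exact 95% interval 53.8 to 71.4), against 26.5% of other nuclei. By class, the share was 70.8% of vascular endothelial, 57.3% of fibroblast and 46.8% of myoepithelial nuclei. It was 38.3% of macrophage, 15.2% of secretory luminal and 13.9% of adipocyte nuclei. A further 31 members carried the hashtag of 1 animal, 12 carried more than 1 hashtag, and 3 carried a hashtag of an unknown sample. The 12 were kept, as the rule takes all nuclei, and they hold 28.4% of the members' UMIs. Median depth was 7230 UMIs in members with 1 animal hashtag, 11080 with more than 1 hashtag and 1902 without a hashtag.

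Transcripts of the secretory luminal nucleus moved with the hashtag too. Ehf, Elf5, Olah and Folr1 together stood at 3343 CPM in members with 1 animal hashtag (3113 to 3585), 4630 CPM with more than 1 hashtag and 1038 CPM without a hashtag (887 to 1207). Secretory luminal nuclei with 1 animal hashtag had 5140 CPM and those without had 4588 CPM. Vascular endothelial nuclei split the same way as pericyte nuclei, at 3336 CPM with 1 animal hashtag and 762 CPM without. So did fibroblast nuclei (1546 and 520 CPM), myoepithelial nuclei (1843 and 514 CPM) and macrophage nuclei (2451 and 622 CPM). Adipocyte nuclei differed less, at 792 and 524 CPM. The 8 rule genes summed to 2169 CPM in members with 1 animal hashtag and 6728 CPM in those without, although the median number of rule genes met was 5 in both. The rule counts genes with a raw UMI, so a deeper nucleus can pass it at a lower rule-gene CPM. The split of the rule genes is therefore a description of how members were chosen. The part of other nuclei or of free RNA in it was not tested. Casein Csn2 was found in 100% of members, and the 15 milk protein genes made up 15.8% of UMIs in members and 15.9% in other nuclei. The milk genes did not follow the 4 secretory genes, since they made up 16.8% of UMIs in members with 1 animal hashtag, 12.3% with more than 1, 2.40% with the unknown-sample hashtag and 20.6% without a hashtag. Free RNA from milk-making cells and RNA made in these nuclei cannot be told apart there.

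**Figure D2:**
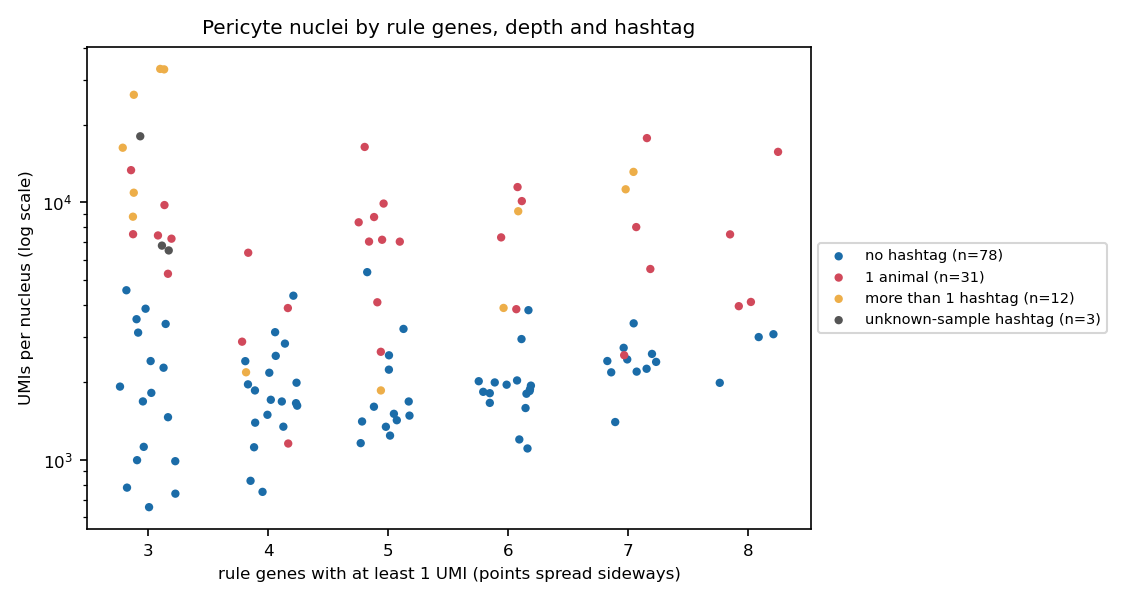
Each point is 1 of the 124 pericyte nuclei, placed by the number of rule genes with a UMI (x axis, 3 to 8) and by its UMIs on a log scale (y axis), and coloured by hashtag call. Nuclei without a hashtag mostly lie below those that carry one, with medians of 7230 UMIs with 1 animal hashtag and 1902 UMIs without.

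**Figure D3:**
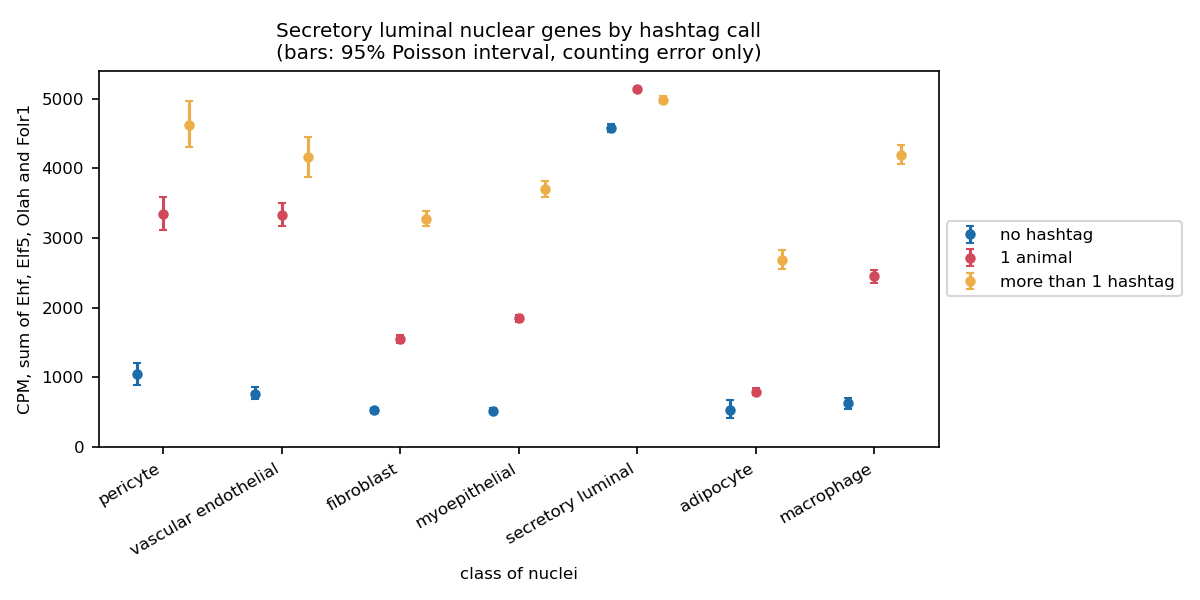
Points give the CPM of Ehf, Elf5, Olah and Folr1 summed over the nuclei of each class, by hashtag call, with 95% Poisson intervals. Pericyte nuclei stand at 1038 CPM without a hashtag, 3343 CPM with 1 animal hashtag and 4630 CPM with more than 1.

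The level in the 78 members without a hashtag, which had fewer UMIs of Ehf, Elf5, Olah and Folr1 per total than members with 1 animal hashtag, is given beside that of all members for several genes below. Among the 9511 genes with a mean of at least 10 CPM over both groups, 1035 (10.9%) were at least 2-fold higher in pericyte nuclei than in other nuclei, and 315 (3.31%) were at least 2-fold lower. The median ratio of all 9511 genes was 1.01. Using only the 78 members without a hashtag, 1889 genes were 2-fold higher and 2214 were 2-fold lower. A share over all genes is not given for that setting, so list counts in these members are not read as traits of a list. The rule used this contrast, so nothing is read from those shares. A gene that is absent elsewhere could reach the 10 CPM only by being high in pericyte nuclei, so the list counts below are descriptions of the genes compared.

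Of the 26 pericyte markers outside the rule, 20 could be compared, and 18 were at least 2-fold higher in pericyte nuclei, 0 were 2-fold lower and the median ratio was 16.75. Gucy1a1, a subunit of the nitric oxide receptor guanylyl cyclase, stood at 218 CPM in pericyte nuclei, against 10.9 CPM in other nuclei. Art3, encoding a surface ADP-ribosyltransferase family member, stood at 189 CPM in pericyte nuclei, against 25.6 CPM in other nuclei, but adipocyte nuclei had 782 CPM. The markers were not all confined to pericyte nuclei. Ano1, a calcium-activated chloride channel, stood at 368 CPM in pericyte nuclei and 202 CPM in other nuclei, and it was found in 50.3% of secretory luminal nuclei. Postn, encoding the matrix protein periostin, stood at 176 CPM in pericyte nuclei but at 544 CPM in fibroblast nuclei.

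Kcnj8 and Cox4i2, named here after their values were seen, were sparse in pericyte nuclei and nearly absent elsewhere. Kcnj8, the pore of the channel that Abcc9 regulates, had 21 UMIs in 13.7% of pericyte nuclei (exact interval 8.19 to 21.0) and in 0.0399% of secretory luminal nuclei. Its level was 35.2 CPM in pericyte nuclei, 0.912 CPM in vascular endothelial nuclei and 0.558 CPM in fibroblast nuclei. Cox4i2, encoding a subunit isoform of cytochrome oxidase, had 19 UMIs at 31.8 CPM in pericyte nuclei, against 0.225 CPM in other nuclei. The members without a hashtag had 80.3 CPM of Kcnj8 and 92.7 CPM of Cox4i2.

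The 25 genes that led by ratio outside the rule, among those with at least 50 UMIs in members and a UMI in at least 20% of them, fall into a few kinds. Stac led the list at 281 CPM in pericyte nuclei (240 to 327) and 1.26 CPM in other nuclei, a ratio of 224. It encodes an adaptor known to bind voltage-gated calcium channels, and it was found in 52.4% of pericyte nuclei and 0.144% of secretory luminal nuclei. Cacnb2, a calcium channel subunit, stood at 243 CPM in pericyte nuclei and 12.9 CPM in other nuclei. Of its 145 UMIs in members, 82 lay in 11 members with high smooth muscle sums, described below. Those 11 had 2236 CPM of Cacnb2, against 112 CPM in the other 113 members. Gjc1, a connexin of gap junctions, stood at 126 CPM in pericyte nuclei and 2.63 CPM in other nuclei.

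Genes of cyclic nucleotide signalling made up a second kind among the leaders. Gucy1b1, the beta subunit of guanylyl cyclase, stood at 142 CPM in pericyte nuclei and 4.38 CPM in other nuclei. Gucy1a2, an alternative alpha subunit, stood at 467 CPM in pericyte nuclei, 224 CPM in fibroblast nuclei and 24.1 CPM in all other nuclei. With Gucy1a1, 3 subunit genes of this nitric oxide receptor were thus among the 25 leaders. Pde3a, which breaks down cAMP and cGMP, stood at 633 CPM in pericyte nuclei, 281 CPM in fibroblast nuclei and 23.4 CPM in all other nuclei. Pde8b, a cAMP phosphodiesterase, stood at 159 CPM in pericyte nuclei and 8.74 CPM in other nuclei.

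Receptors of vasoconstrictors and a cytokine were a further kind. Agtr1a, the angiotensin II receptor, stood at 116 CPM in pericyte nuclei, 67.0 CPM in fibroblast nuclei and 6.66 CPM in all other nuclei. Ednra, the endothelin A receptor, stood at 146 CPM in pericyte nuclei and 8.54 CPM in all other nuclei. By class, Ednra stood at 87.4 CPM in adipocyte, 39.3 CPM in fibroblast and 33.8 CPM in myoepithelial nuclei. Of its 87 UMIs in members, 20 lay in the 11 members with high smooth muscle sums. Il34, a ligand of the macrophage receptor CSF1R, stood at 218 CPM in pericyte nuclei (182 to 258), 47.6 CPM in fibroblast nuclei and 2.13 CPM in macrophage nuclei.

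Cytoskeletal and vesicle genes included Sgip1, which acts in endocytosis, at 537 CPM in pericyte nuclei and 22.2 CPM in other nuclei. Chn1, a GTPase-activating protein for Rac, stood at 208 CPM in pericyte nuclei and 6.39 CPM in other nuclei. Daam2, a formin, stood at 116 CPM in pericyte nuclei and 4.87 CPM in other nuclei. Afap1l2 and Septin4 had ratios of 24.8 and 18.8. Adap2 had a ratio of 21.6 and its antisense partner Adap2os 20.0. The strand used in the counting was not stated, and whether reads from opposite strands were kept apart was not tested. The same holds for Sox5os4, with a ratio of 22.1. Tmem273, B130024G19Rik, Rnf152 and Gcnt2 had ratios of 45.4, 28.1, 25.5 and 19.4. In members without a hashtag the levels were higher, at 686 CPM for Stac, 1341 CPM for Pde3a and 500 CPM for Il34.

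Of 33 mural channel genes, 27 could be compared, and 17 were at least 2-fold higher and 0 lower, with a median ratio of 2.56 that includes the rule genes Abcc9 and Trpc6. In members without a hashtag, 19 of 27 were at least 2-fold higher and 7 were at least 2-fold lower. Over all genes, 1889 were higher and 2214 lower in these members, so neither count is read as a trait of the list. Cacna1c, the L-type calcium channel pore, stood at 1025 CPM in pericyte nuclei, 552 CPM in myoepithelial nuclei and 78.0 CPM in all other nuclei, and was found in 85.5% of pericyte nuclei. Kcnq5, a potassium channel, stood at 534 CPM in pericyte nuclei but at 3040 CPM in myoepithelial nuclei. Of 45 genes of G protein, calcium and cyclic nucleotide control, 41 could be compared, with 23 at least 2-fold higher, the rule gene Rgs5 among them, and 0 lower. In members without a hashtag, 28 of 42 were at least 2-fold higher and 4 were at least 2-fold lower. With no share over all genes in that setting, these counts too are not read as a trait of the list. Prkg1, the cGMP-dependent kinase, stood at 2553 CPM in pericyte nuclei, 3257 CPM in myoepithelial nuclei and 313 CPM in all other nuclei. Pde4d did not stand out, at 717 CPM in pericyte nuclei and 847 CPM in other nuclei.

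Of 40 vasoactive receptor genes, 12 could be compared, with 4 at least 2-fold higher and 3 lower. Ednrb, the endothelin B receptor, stood at 46.9 CPM in pericyte nuclei and 59.2 CPM in vascular endothelial nuclei. Chrm3, a muscarinic receptor, stood at 404 CPM in pericyte nuclei and 512 CPM in other nuclei, and at 117 CPM in members without a hashtag. The oxytocin receptor gene Oxtr had 5 UMIs in members, at 8.37 CPM (2.72 to 19.5), against 20.9 CPM in other nuclei. Myoepithelial nuclei, where oxytocin acts on milk ejection, had 233 CPM, but Oxtr is among the markers that chose them.

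Contractile genes were mixed between pericyte and myoepithelial nuclei. Of 20 smooth muscle and contractile genes, 15 could be compared, with 9 at least 2-fold higher than in other nuclei and 1 lower. Set against myoepithelial nuclei, 6 of the 20 had a higher CPM in pericyte nuclei and 14 a lower one. Acta2, Cnn1 and Mylk of this list are among the markers that chose the myoepithelial nuclei, so the count follows in part from that choice. Myh11, smooth muscle myosin, stood at 320 CPM in pericyte nuclei, 2854 CPM in myoepithelial nuclei and 21.0 CPM in fibroblast nuclei. Tpm1, a tropomyosin, stood at 298 CPM in pericyte nuclei and 897 CPM in myoepithelial nuclei. Synpo2, an actin-binding protein of muscle, stood at 203 CPM in pericyte nuclei and 709 CPM in myoepithelial nuclei. Sorbs2, which encodes a cytoskeletal adaptor, ran the other way, at 219 CPM in pericyte nuclei and 70.9 CPM in myoepithelial nuclei. It was not particular to pericyte nuclei, at 335 CPM in vascular endothelial and 145 CPM in secretory luminal nuclei. A Sorbs2 UMI was found in 28.2% of pericyte nuclei and 35.0% of other nuclei. Rcan2, a calcineurin regulator named after its value was seen, was also higher, at 129 CPM in pericyte nuclei and 4.57 CPM in myoepithelial nuclei. Much of these levels lay in the 11 members with high smooth muscle sums, described below. They held 88 of 191 Myh11, 79 of 178 Tpm1, 58 of 121 Synpo2, 54 of 131 Sorbs2 and 44 of 77 Rcan2 UMIs. Myh11, which is part of that sum, stood at 2399 CPM in the 11 and 184 CPM in the other 113 members. Rcan2 stood at 1200 CPM and 58.9 CPM. Trp63 and Oxtr, which define myoepithelial nuclei, stood at 794 and 233 CPM in them, but Trp63 is excluded by the rule and had 1 UMI in pericyte nuclei.

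Transcription factors included several of mesenchymal cells. Of 24 smooth muscle transcription genes, 15 could be compared, with 10 at least 2-fold higher and 0 lower. Ebf1 stood at 2870 CPM in pericyte nuclei (2736 to 3009), 4100 CPM in fibroblast nuclei and 13.8 CPM in secretory luminal nuclei. Ebf2 stood at 445 CPM in pericyte nuclei, 678 CPM in fibroblast nuclei and 9.12 CPM in vascular endothelial nuclei. Both EBF genes are thus shared with fibroblasts. Mef2c, a MADS-box factor, stood at 378 CPM in pericyte nuclei, 325 CPM in vascular endothelial nuclei and 72.9 CPM in fibroblast nuclei. Mef2a stood at 281 CPM in pericyte nuclei and 165 CPM in other nuclei.

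Most PDGF and Notch genes compared were within 2-fold of other nuclei. Of 12 PDGF signalling genes, 10 could be compared, and 2 were at least 2-fold higher, Pdgfrb (a rule gene) and Nrp1. Pdgfb, the ligand made by endothelium, had 3 UMIs in pericyte nuclei, at 5.02 CPM, against 67.5 CPM in vascular endothelial nuclei; it is named after its value was seen. Pdgfd stood at 239 CPM in pericyte nuclei and 621 CPM in vascular endothelial nuclei. Of 19 Notch genes, 12 could be compared, with 3 at least 2-fold higher, the rule gene Notch3 among them, and 0 lower. Maml2, a coactivator, stood at 764 CPM in pericyte nuclei and 645 CPM in other nuclei. Of 18 genes of the angiopoietin and VEGF axis, 9 could be compared, and 5 were at least 2-fold higher. Angpt1, a ligand that pericytes are known to supply, stood at 348 CPM in pericyte nuclei and 320 CPM in other nuclei, and at 247 CPM in members without a hashtag. Of 25 TGF-beta and BMP genes, 17 could be compared, with 5 at least 2-fold higher and 0 lower.

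Matrix genes set pericyte nuclei apart from fibroblast nuclei by degree. Of 38 basement membrane and matrix genes, 32 could be compared, with 17 at least 2-fold higher than in other nuclei and 4 lower. Col4a1, a basement membrane collagen, stood at 310 CPM in pericyte nuclei, 269 CPM in vascular endothelial nuclei and 773 CPM in fibroblast nuclei. Lama2, a laminin chain, stood at 486 CPM in pericyte nuclei and 3257 CPM in fibroblast nuclei. Adamts12, a matrix protease, stood at 579 CPM in pericyte nuclei and 1711 CPM in fibroblast nuclei. Of 15 fibrillar collagen and fibroblast matrix genes, 11 could be compared, and 2 were at least 2-fold higher, Aspn (a rule gene) and Postn. Col3a1 stood at 273 CPM in pericyte nuclei and 2156 CPM in fibroblast nuclei. Fbn1 stood at 139 CPM in pericyte nuclei and 1119 CPM in fibroblast nuclei. Both are among the markers that chose the fibroblast nuclei, so their levels there follow in part from that choice.

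Adhesion genes had 27 of 38 members compared, 13 of them at least 2-fold higher and 0 lower. Itga1, the integrin subunit that binds collagen, stood at 455 CPM in pericyte nuclei (403 to 513), 201 CPM in vascular endothelial nuclei and 35.2 CPM in fibroblast nuclei. Slit3, a guidance ligand, stood at 730 CPM in pericyte nuclei and 2120 CPM in fibroblast nuclei.

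Genes shared with adipocytes gave a mixed result. Of 26 adipose progenitor and adipogenic genes, 17 could be compared, with 5 at least 2-fold higher and 2 lower. Fabp4, a fatty acid carrier, stood at 608 CPM in pericyte nuclei, 1651 CPM in vascular endothelial nuclei, 3132 CPM in adipocyte nuclei and 28.1 CPM in secretory luminal nuclei. Pparg, the adipogenic nuclear receptor, stood at 410 CPM in pericyte nuclei (360 to 465) and 149 CPM in fibroblast nuclei. Pparg stood at 1119 CPM in vascular endothelial nuclei and at 1883 CPM in adipocyte nuclei, where it is among the markers that chose them. It was found in 58.9% of pericyte nuclei and 1.61% of secretory luminal nuclei, and is the fifth of its list by UMIs, named after its value was seen. In the members without a hashtag Fabp4 stood at 1198 CPM and Pparg at 791 CPM. In these same members Pecam1 stood at 24.7 CPM, against 696 CPM in vascular endothelial nuclei, and Plin1 at 6.18 CPM. Both Pecam1 and Adipoq are limited by the rule. Cd36 and Lpl did not stand apart from other nuclei, with ratios of 1.02 and 0.797.

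Most lipid, stress, cytokine and hormone receptor genes compared were within 2-fold of other nuclei when all members were taken. Of 37 lipid and glucose genes, 34 could be compared, with 4 at least 2-fold higher and 0 lower in all members. In members without a hashtag, 13 of 34 were at least 2-fold lower and 7 at least 2-fold higher, beside 2214 lower and 1889 higher over all genes. The number of genes compared in that setting is not given, so these counts are not read as a trait of the list. Acaca, which starts fatty acid synthesis, stood at 4116 CPM in members and 5649 CPM in other nuclei, but at 1118 CPM in members without a hashtag. Acsl1 stood at 1597 CPM in members, 2455 CPM in other nuclei and 340 CPM in members without a hashtag. Of 22 cell cycle genes, 2 reached the level needed for comparison. Ccnd2, a D-type cyclin, was higher, at 33.5 CPM in members and 8.95 CPM in other nuclei. Mki67, a proliferation marker, was lower, at 13.4 CPM in members and 34.8 CPM in other nuclei, and had 8 UMIs in members, 0 of them in members without a hashtag. Txnip, a stress-responsive gene, stood at 1616 CPM in members and 2013 CPM in other nuclei. Of 28 cytokine genes, 15 could be compared, with 3 at least 2-fold higher, and Stat3 stood at 286 CPM in members and 428 CPM in other nuclei. Of 20 hormone receptor genes, 16 could be compared, with 3 at least 2-fold higher and 1 lower. Ghr, the growth hormone receptor, stood at 623 CPM in members and 600 CPM in other nuclei. Esr1, the estrogen receptor, stood at 383 CPM in members, 560 CPM in other nuclei and 117 CPM in members without a hashtag.

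The members were not alike in smooth muscle transcripts. Summed over the 13 smooth muscle markers, the UMIs per 10000 had a median of 4.99, and 37 members had none. A group of 11 members lay at 67.1 to 193 per 10000 and the other 113 at 0 to 40.2, with 1 member between 40 and 60, so the line at 50, drawn after the values were seen, divides a range. Of the 11, 9 carried no hashtag, and the values below compare them with the 69 lower members without a hashtag. Kcnab1, a list gene that encodes a potassium channel subunit, was found in 10 of the 11 and 2 of the 69. Ryr2, the ryanodine receptor, was found in 6 of the 11 and 0 of the 69. Both genes are part of the sum, so their split is a description of the range. Outside the list, and picked after their values were seen, Ctnna3 was found in 10 of the 11 and 6 of the 69, and Dgkb in 11 of the 11 and 12 of the 69. Myocd, a coactivator of smooth muscle genes, was found in 7 of the 11 and 3 of the 69.

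Pericyte genes were split along this range. Of the 26 pericyte markers outside the rule, 6 had a higher CPM in the 11 members with high smooth muscle sums, 18 had a lower one and 2 were at 0 in both. Among the higher ones, picked after their values were seen, Slc38a11 stood at 763 CPM in the 11 and 22.2 CPM in the 69 lower members without a hashtag, and Ednra at 545 CPM and 274 CPM. The genes below that ran the other way are rule genes or were also picked after their values were seen. Abcc9 was found in 2 of the 11 members with high smooth muscle sums and 49 of the 69 lower members without a hashtag, at 109 CPM and 1428 CPM. Steap4, named after its value was seen, was found in 0 of the 11, where 3 UMIs would be 81.8 CPM, and in 21 of the 69, at 222 CPM. Kcnj8 and Cox4i2 were found in 0 of the 11 and, at 96.2 and 111 CPM, in 10 and 13 of the 69. Their levels lie so near 81.8 CPM that a difference was hardly detectable at this depth. Notch3 was found in 11 of the 11 and 50 of the 69, at 1281 CPM and 1058 CPM. Pde3a was found in 10 of the 11 and 47 of the 69, Gucy1a2 in 9 and 47, and Ebf1 in 10 and 59, so these genes were present at both ends of the range.

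**Figure D4:**
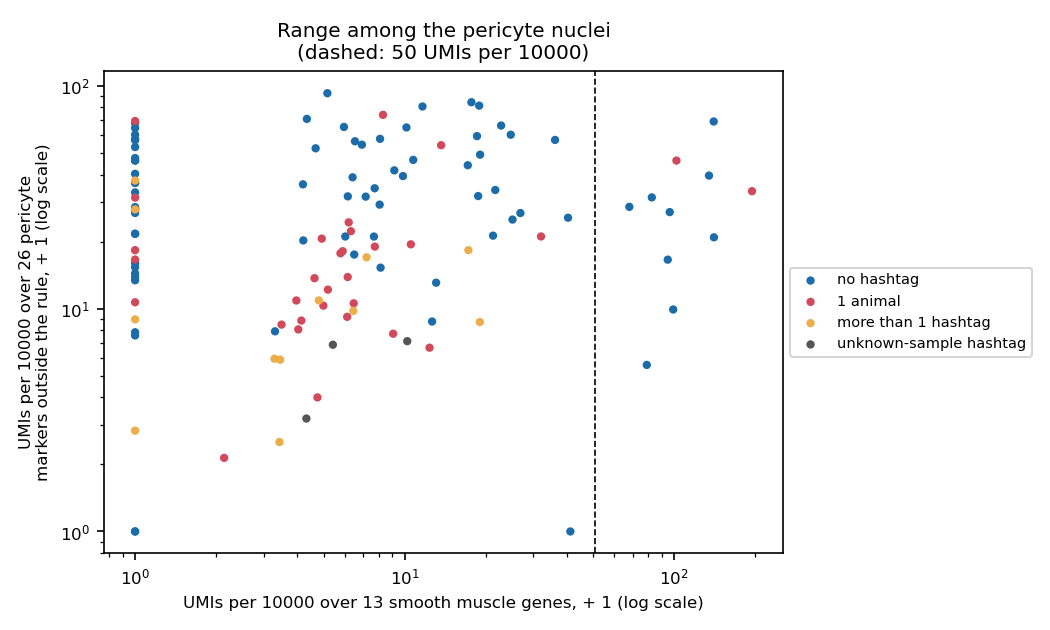
Each point is 1 of the 124 pericyte nuclei, with UMIs per 10000 over 13 smooth muscle genes (x axis) and over 26 pericyte markers outside the rule (y axis), both plus 1 on log scales, coloured by hashtag call. The 11 nuclei right of the dashed line at 50 per 10000 reach 193, and 9 of them carry no hashtag.

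The study asks what the oxytocin receptor of adipocytes does for milk fat, so the members with a named animal were compared between genotypes. Oxtr-KO animals 1 to 4 had 7, 7, 3 and 3 pericyte nuclei among 2011, 1648, 1311 and 1407 nuclei, which are 0.348%, 0.425%, 0.229% and 0.213%. WT animals 1 to 4 had 4, 5, 2 and 0 among 1636, 1659, 1958 and 1375 nuclei, which are 0.244%, 0.301%, 0.102% and 0%. The 0 of WT animal 4 allows a share of up to 0.218%. The shares of both genotypes overlap. The means were 0.304 ± 0.101% in Oxtr-KO animals and 0.162 ± 0.137% in WT animals (SD, n = 4 each), a difference of 0.142 percentage points with a two-sided exact permutation p of 0.171 (0.514 after Benjamini-Hochberg adjustment over 6 tests). The smallest p this design allows is 0.0286. Only 31 of 124 members enter here, and fewer pericytes and fewer nuclei recovered or tagged cannot be told apart.

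**Figure D5:**
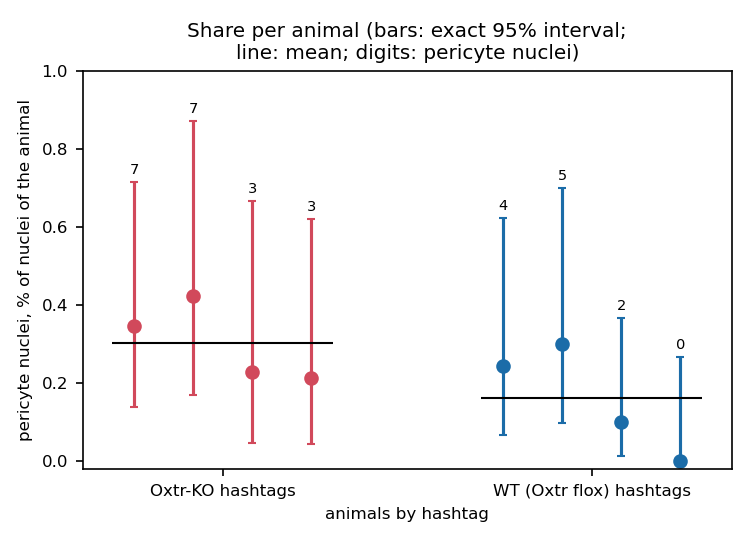
Points give the percent of each animal's nuclei that met the pericyte rule, for 4 Oxtr-KO and 4 WT (Oxtr flox) hashtags, with exact 95% intervals, the mean as a line and the number of pericyte nuclei above. The animals overlap, from 0.213% to 0.425% in Oxtr-KO and from 0% to 0.301% in WT.

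Set against vascular endothelial nuclei of the same animal, the capillary partner cell, the ratio was 0.269, 0.259, 0.150 and 0.200 in Oxtr-KO animals 1 to 4. It was 0.267, 0.333, 0.0909 and 0 in WT animals 1 to 4. The groups overlap, with means of 0.220 ± 0.0556 in Oxtr-KO and 0.173 ± 0.154 in WT animals (SD, n = 4 each, exact permutation p = 0.600). Without WT animal 4 the difference turned to -0.0107.

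Oxtr was too sparse in pericyte nuclei to compare. Oxtr-KO animals 1 to 4 had 0, 2, 0 and 1 Oxtr UMIs in their pericyte nuclei, and WT animals 1 to 3 had 0 each (two-sided exact permutation p = 0.571 on CPM; WT animal 4 had no pericyte nucleus). The labels place the deletion in adipocytes, so these values do not check it.

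Technical measures of the pericyte nuclei were compared in the same way. Their median depth was 6637 ± 2618 UMIs in Oxtr-KO animals (SD, n = 4) and 7893 ± 853 in WT animals (SD, n = 3, exact permutation p = 0.571). Mean mitochondrial UMIs were 0.248%, 0.249%, 0.253% and 0.324% in Oxtr-KO animals 1 to 4, and 0.0357%, 0.0763% and 0.122% in WT animals 1 to 3. All Oxtr-KO animals were higher than all WT animals, yet the exact permutation p of 0.0571 is the smallest that 4 against 3 can give and was 0.343 after adjustment. The difference of 0.190 percentage points was 0.105 with all 10 hashtags (exact permutation p = 0.486) and 0.00510 with at least 2 rule genes (exact permutation p = 0.886). Milk protein genes made up 15.3 ± 7.47% of UMIs in Oxtr-KO and 15.3 ± 1.99% in WT animals (SD, n = 4 and n = 3, exact permutation p = 0.914). The secretory genes Ehf, Elf5, Olah and Folr1 summed to 2263, 3013, 2536 and 2707 CPM in Oxtr-KO animals 1 to 4, and 4482, 4388 and 4704 CPM in WT animals 1 to 3. The ranges do not overlap, and this difference was not tested. The 8 rule genes stood at 3156, 2074, 1826 and 1098 CPM in Oxtr-KO animals, and 983, 2093 and 2977 CPM in WT animals, which overlap.

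A gene-by-gene comparison of genotypes needed 5 pericyte nuclei in 3 animals of each genotype, and the rule gave that in 2 Oxtr-KO animals and 1 WT animal, so none was made. With at least 2 rule genes, 343 nuclei qualified, of which the 136 with 1 animal hashtag entered the fit, at least 8 per animal. The quasi-likelihood test of edgeR then called 0 of 1941 genes (0%) at an adjusted p under 0.05, with 110 genes at an unadjusted p under 0.05. DESeq2 called 2 genes. Most of those nuclei lie outside the pericyte rule.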

How the data were processed

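The authors deposited raw UMI counts per gene and nucleus, and a hashtag table with 1 line per hashtag UMI and its read count; lines, not reads, were summed. Cell Ranger 7.2.0, fastp and the build GRCm39 are named in the submitters' processing notes. The matrix held 21805 barcodes, 33943 genes and 107910356 UMIs. Per the labels' protocols, some samples were washed against free RNA, without saying which. Animals were called with HTODemux (Seurat 5.3.0, R 4.3.3, positive quantile 0.99, 9 of 10 hashtags). Members took the deposited counts as they are, and no doublet caller was run. Comparison classes needed at least 3 markers and at most 1 UMI of other classes' defining genes, and 2069 nuclei that met several classes were left out. Levels of those markers and defining genes in a class follow in part from that choice. Caseins and whey genes occur in nearly every nucleus, so secretory luminal nuclei needed 3 of Elf5, Fasn, Olah, Btn1a1, Folr1 and Ehf. Genes named are the 8 rule genes, the 25 leading genes (some are not reported here) and at most 4 per list by UMIs; others are said to be chosen after their values were seen, as Kcnj8 was. The members and lists were chosen with earlier results of these data known. Animals were compared with exact permutation tests (scipy 1.17.1), and nuclei with at least 2 rule genes with edgeR 4.0.16 (TMM, filterByExpr) and DESeq2 1.42.0. The edgeR fit, but not DESeq2, was tested on simulated data. Hashtags stand for animals only if the calls are right, and no label says whether dams shared a day.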

Additional observations from a re-analysis of the deposited data

Results flagged for a closer look

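Among the 13 groups of 4 animals examined for a sample far from the others, 1 stood out: the mean mitochondrial share of pericyte nuclei was 0.324% in Oxtr-KO animal 4, against 0.248% to 0.253% in the other Oxtr-KO animals. That value rests on 3 nuclei, and chance flags about 1 in 20 groups. The hashtag of an unknown sample, which belongs to no group, marked 267 nuclei, and 3 of them met the pericyte rule (1.12%, exact 95% interval 0.232 to 3.25). That share is above the 0.166% of WT nuclei and the 0.314% of Oxtr-KO nuclei. It rests on 3 nuclei, and its interval holds the Oxtr-KO share. These 3 nuclei met a median of 3 rule genes and summed to 542 CPM of rule genes, against 2169 CPM in members with 1 animal hashtag.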

How the results depend on the processing

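The number of pericyte nuclei was 343 with at least 2 rule genes, 78 without a hashtag and 31 with 1 animal hashtag, against 124. Genes at least 2-fold lower than in other nuclei numbered 734 in members with 1 animal hashtag, 702 without those with more than 1 hashtag, 65 with at least 2 rule genes, 862 with at least 4, 532 with 0 excluded UMIs, 567 without the 5 deepest members and 2214 without a hashtag, against 315. Genes at least 2-fold higher numbered 1889 without a hashtag, against 1035. With at least 2 rule genes, 11 of the pericyte markers outside the rule were 2-fold higher, against 18, and the log2 ratios of Myh11 and Acta2 turned to -0.53 and -0.05. Over 36 named genes and 9 settings, 324 log2 ratios were computed, and those 2 were the only ones that changed sign. The settings on hashtag-free members, deepest members and the unknown sample were chosen after seeing the data. None of the 6 measures compared per animal reached a permutation p under 0.05 in any setting run, but many settings could not give one. For depth, mitochondrial share, milk protein share and Oxtr, the smallest possible permutation p in the main setting was 0.0571. The share and the ratio met that floor when 1 animal was left out, and the replicate block could not go below 0.125. In those settings the lack of a p under 0.05 is not read as a result. The share difference stayed positive in all settings run, at 0.0877 to 0.188 percentage points when 1 animal was left out. It was 0.547 with the hashtag ratio rule and 0.0446 with centred log ratios within barcodes. The ratio to endothelial nuclei turned to -0.0221 with centred log ratios within barcodes, to -0.213 with at least 2 rule genes and to -0.0107 without WT animal 4 (range over animals left out -0.0107 to 0.100). The depth difference turned to 1126 UMIs with centred log ratios within barcodes. The milk protein difference, -0.00501 percentage points, turned to 6.73 with all 10 hashtags, 0.612 with at least 2 rule genes, 4.14 with at least 4 and 2.39 with 0 excluded UMIs, and ranged from -3.39 to 2.49 when 1 animal was left out, with 0.934, 0.893 and 0.164 among them. The cause was not tested. Depth limits the genotype comparisons: 31 nuclei enter, and genes under 3 UMIs are not separable from 0. With the replicate block on the hashtag numbers, the share difference was 0.142 (exact permutation p = 0.125, the smallest for 4 pairs), and the block changed no call. The gene fit on nuclei with at least 2 rule genes called 0 genes with RLE scaling, 47 without a filter and 2 by DESeq2.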
